A study of Saccharomyces cerevisiae with 7 samples.

Results

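The Spo11 hotspot inside YBR209W was a single region of chromosome II, 876 bp wide, from 642333 to 643208 in the coordinates of the authors' maps (build Cer3H4L2). It was 1 of 2682 hotspots on the 15 chromosomes analysed. It was selected on its number of hits in these SPO11+ libraries and on the place of its peak inside an ORF. Its level, its rank and the place of its hits are therefore given as descriptions without a test. A window from 641000 to 644500 was used around it. Of 6002 protein-coding genes, 2 were described in depth, namely YBR209W, a gene of unknown function, and the next gene downstream, ERV15, which encodes an endoplasmic reticulum protein involved in protein export and related to Erv14. By the gene annotation used, ERV15 began 1050 bp beyond the end of that window, and its counts were taken from the same maps.

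Spo11 is the topoisomerase-like protein that starts meiotic recombination. It cuts both strands of DNA at staggered positions and stays covalently linked to each 5′ end, and in budding yeast it does so mostly in promoters, where DNA is free of nucleosomes. Sae2 is needed to release Spo11 from these ends together with a short oligonucleotide, so that in cells without Sae2 the linked ends persist. CC-seq enriches protein-linked DNA on silica, removes the protein residue after the ligation of a first adapter, and reads the position of the linked 5′ end to the nucleotide, on the Watson (forward) or Crick (reverse) strand.

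The libraries of SPO11+ came from sae2∆ cells and the library of spo11-Y135F from sae2∆ spo11-Y135F cells, in which the catalytic tyrosine of Spo11 is replaced, so that the loss of Sae2 was common to all samples. All were SK1 cultures taken 6 h after transfer to sporulation medium. SPO11+ had 5 biological replicates, and the fifth was sequenced as 2 technical replicates, which were summed, while spo11-Y135F had 1 library. The labels do not say how the biological replicates were separated, so the spread given here is that between these samples. Replicate 5 is labelled sae2 but was deposited under names that say WT, and it was taken as sae2∆. Totals were 3177210 to 8564017 hits in the SPO11+ replicates, with a median of 3569290, and 2326054 hits in spo11-Y135F. Levels are given as HpM, hits scaled to a library total of 1000000, in which 1 hit was worth 0.117 to 0.315 HpM in SPO11+ and 0.430 HpM in spo11-Y135F. Such levels, being shares of a library, do not give the fraction of cells that were cut. Inside this hotspot, replicate 4 differed in shape from the other 4 replicates, and values without it are given where it moved a result.

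Distances below are counted from the first base of the YBR209W start codon, which is 0, along the Watson strand. YBR209W is 318 bp long and is read on the Watson strand. To its left, after a gap of 372 bp, lies the start of DUR12, which encodes urea amidolyase and is read on the Crick strand, so that the gap holds the promoters of both genes. To its right lie a gap of 106 bp and then a tRNA gene, YNCB0017C, of 72 bp on the Crick strand. The maps then held no hit in any library over 633 bp, from 643372 to 644004, and over a further 242 bp, from 644362 to 644603. Long terminal repeats and retrotransposons had been removed by the authors, and what these runs contain was not tested. A second tRNA gene, YNCB0018W, stands 311 bp before ERV15, and ERV15 is followed after 179 bp by AME1, a kinetochore gene read on the Crick strand. The gap from YBR209W to ERV15 measured 2649 bp.

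The hotspot had 5018, 4895, 5017, 4340.45 and 5418 HpM in SPO11+ replicates 1 to 5, and 68.8 HpM in spo11-Y135F. This corresponded to 15450 to 41918 hits in each SPO11+ replicate, against 160 hits in the control. The SPO11+ mean was 4938 ± 388 HpM (SD, n = 5), which was 71.8 times the level of the single control library, and the 95% Wilson interval of the control was 58.9 to 80.3 HpM. Every SPO11+ replicate was far above that interval. The technical replicates of replicate 5 had 5540.43 and 5328 HpM. Reads that are PCR copies cannot be told from separate molecules, so that this interval covers counting error only. With a single control library, the difference was not tested.

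Within the window, 98.6% ± 0.249 of the SPO11+ hits fell in the hotspot, against 28.4% of the spo11-Y135F hits. YBR209W itself made up 11.7% of the countable positions of the window. It held 84.3% ± 1.40 of the window's hits in SPO11+ (lowest replicate 82.9%, highest 85.8%) and 10.6% in spo11-Y135F. The ORF held most hits in each of the 5 replicates, whereas hits of the control followed the length of the segments more closely. Since the hotspot was chosen for a peak inside an ORF in these same libraries, this place is a description and no separate result. The end of DUR12 that lies in the window held 0.659% ± 0.128 of the SPO11+ hits and 48.2% of the control hits, over 44.4% of the countable positions.

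The flanks of YBR209W carried much less. The gap between DUR12 and YBR209W, with both promoters, held 7.32% ± 0.976 of the window's hits in SPO11+, with 404, 429, 358, 271 and 374 HpM in replicates 1 to 5, against 35.7 HpM in the control. The 106 bp between YBR209W and the tRNA gene held 5.52% ± 0.407, with 277 ± 36.2 HpM in SPO11+ and 6.88 HpM in spo11-Y135F. In both gaps replicate 4 had the lowest value. The tRNA gene YNCB0017C had 40.9 ± 6.21 HpM in SPO11+ and 4.73 HpM in spo11-Y135F. Reads that match several tRNA genes were kept by the alignment, so that this value is uncertain. From the tRNA gene to the end of the window, SPO11+ had 106 ± 17.9 HpM per kb and spo11-Y135F had 80.7 HpM per kb, with the range of the replicates on both sides of the control. The median ORF had 20.0 HpM per kb in SPO11+ and 86.0 in the control, so that a level near the control is not a low level for SPO11+. This stretch also includes the right end of the hotspot, where the bin from 550 to 599 bp had 28.2 HpM in SPO11+ and 1.29 HpM in spo11-Y135F.

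**Figure D1:**
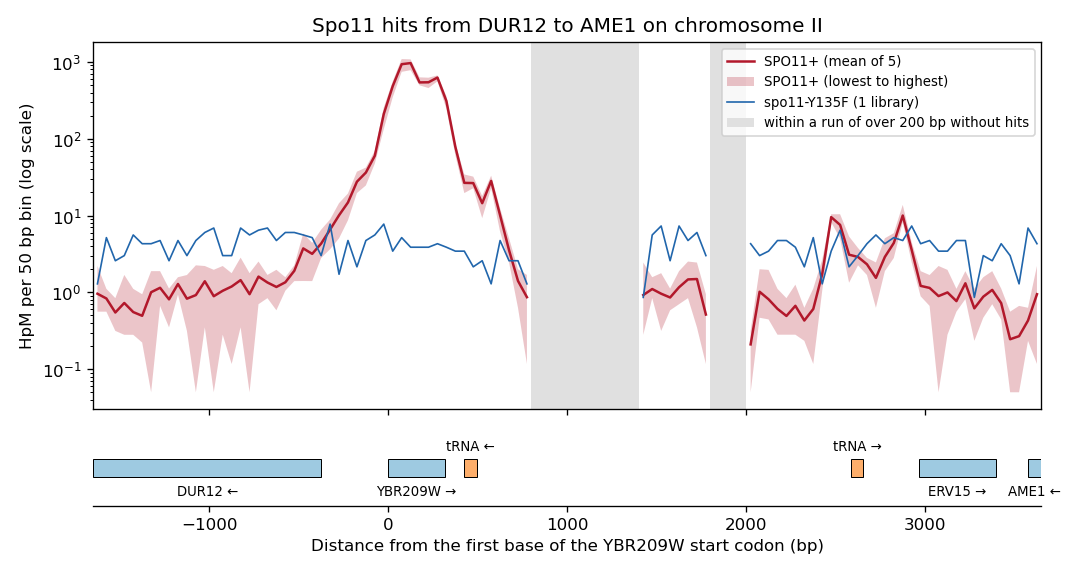
HpM in bins of 50 bp (log scale) against distance from the start codon of YBR209W, for the mean and range of the 5 SPO11+ replicates and for the spo11-Y135F library, with genes drawn below and runs without hits in grey (bins without hits are drawn at the bottom of the shaded band). The SPO11+ mean is above the control in every bin from -300 to 699 bp, which covers YBR209W, and below it in every bin that lies wholly within the plotted end of DUR12 or within ERV15.

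Per length, YBR209W had 13286, 12928.5, 13473, 11891 and 14734 HpM per kb in SPO11+ replicates 1 to 5, and 81.1 HpM per kb in spo11-Y135F. The mean of 13263 ± 1025 HpM per kb was the highest of 5834 ORFs, and it was rank 1 in every replicate. The next ORFs were YBR032W with 5256 ± 822 HpM per kb and YER078W-A with 3901 ± 329 HpM per kb. The median ORF had 20.0 HpM per kb in SPO11+, so that YBR209W stood 664 times above it, and this 1 ORF received 1.67% of the HpM of all ORFs. In the control YBR209W, with 60 hits, was close to the median ORF, which had 86.0 HpM per kb.

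ERV15 lay at the other end of the scale of the pair. It had 40, 48, 39, 22 and 33 hits in SPO11+ replicates 1 to 5, against 70 hits in spo11-Y135F. This gave 29.3, 13.1, 20.2, 14.4 and 21.6 HpM per kb in SPO11+, with a mean of 19.7 ± 6.50, and 70.1 HpM per kb in spo11-Y135F. The mean was near the median of all ORFs, at a percentile of 47.9. The rank of ERV15 by density ran from 1561 to 5356 of 5834 over the replicates, which shows how little 22 to 48 hits fix it. All 5 replicates were below the control, as was the median ORF, with 20.0 HpM per kb in SPO11+ and 86.0 HpM per kb in spo11-Y135F.

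The neighbours of the pair were similar to ERV15. DUR12 had 18.7 ± 4.24 HpM per kb in SPO11+ and 84.8 HpM per kb in spo11-Y135F. AME1 had 18.9 ± 2.81 HpM per kb in SPO11+ and 93.9 HpM per kb in spo11-Y135F. The spread of ERV15 over the replicates covered both means, so that the levels of these 3 genes were not separated. The replicates of YBR209W lay above all those of these 3 genes, which follows from the choice of the hotspot on these same hits and is no separate result.

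Between YBR209W and ERV15 the smoothed SPO11+ map had a second, weak maximum, which lay 90 bp before the start of the tRNA gene YNCB0018W and 473 bp before the start codon of ERV15. Its height was 0.165 ± 0.0272 HpM per bp (SD, n = 5), against 0.0878 HpM per bp in spo11-Y135F at the same place. It reached 63.6% of the threshold for a hotspot, and so was not called. The highest point in each replicate alone lay 481 to 469 bp before ERV15. The 50 bp bin from 2450 to 2499, which held this maximum, had 9.54 ± 0.806 HpM in SPO11+ and 3.44 HpM in spo11-Y135F, and the lowest replicate, with 8.22 HpM, was above the control. A bin of similar height was found closer to ERV15, 117 to 68 bp before its start codon, with 10.0 ± 2.27 HpM in SPO11+ and 4.73 HpM in spo11-Y135F. The peak inside YBR209W was 107 times as high as the weak maximum.

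The hotspot began 250 bp before the start codon of YBR209W, 123 bp from the start of DUR12, and ended 308 bp beyond the end of the ORF, 130 bp past the tRNA gene. A hotspot was any stretch of at least 25 bp in which the mean SPO11+ map, smoothed with a Hann window that reached 100 bp to each side, stood above 3 times its mean, and stretches less than 200 bp apart were joined. The threshold was 0.260 HpM per bp. At the left edge the map had 0.262 HpM per bp just inside and 0.2598 just outside, and at the right edge 0.264 just inside and 0.259 just outside. The highest point was 17.8 HpM per bp, which was 205 times the mean of the smoothed map.

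That highest point lay at 642689, which was 106 bp inside the ORF and 211 bp before its end. In SPO11+ replicates 1 to 5 taken alone, it lay 102, 104, 102, 128 and 105 bp from the start codon. Replicate 4 was apart from the other 4 replicates, and the peak of the mean map without it was at 103 bp. In spo11-Y135F the smoothed map reached at most 0.124 HpM per bp within the hotspot, at 54 bp before the start codon, a place that 160 hits over 876 bp do not fix.

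Most hits of the hotspot lay within the ORF, and few lay far beyond its ends. In SPO11+, 85.4% ± 1.37 of the hits of the hotspot lay within YBR209W, 7.05% ± 0.959 lay to its left and 7.51% ± 0.555 to its right, against 37.5% of the spo11-Y135F hits within the ORF. The middle 90% of the SPO11+ hits ran from 22 to 6 bp before the start codon, depending on the replicate, to 323 to 326 bp after it, where the last base of the ORF is at 317. This span of 337 ± 8.50 bp was close to the length of the ORF. At the height of 50% of the peak, the smoothed map ran from 13.4 ± 4.72 bp to 299 ± 6.12 bp. The middle hit lay at 124, 137, 137, 159 and 138 bp in replicates 1 to 5. It thus varied more than these limits, but only with replicate 4 included. Without replicate 4 it lay at 124 to 138 bp, a spread similar to that of the left limit, 22 to 6 bp before the start codon. The left 50% of the ORF held 60.8%, 57.7%, 59.2%, 50.3% and 58.0% of its hits.

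Bins of 25 bp showed how sharply the level changed at both ends of the ORF. The bin from 50 to 26 bp before the start codon had 33.9 ± 11.8 HpM in SPO11+, the next had 176 ± 43.0 HpM, and the first bin of the ORF had 299 ± 56.0 HpM. The highest bin, from 75 to 99 bp, had 663 ± 112 HpM. At the other end, the bin from 300 to 324 bp, which contains the stop codon, had 229.6 ± 32.97 HpM, the bin after it 79.9 ± 12.4 HpM, and the bin from 400 to 424 bp, just before the tRNA gene, 10.3 ± 1.21 HpM. In spo11-Y135F none of the 25 bp bins of the hotspot held more than 10 hits. The steps at the ends of the ORF were larger than the SDs of the bins on either side. Steps inside the ORF were also large, from 271 ± 17.5 HpM in the bin from 50 to 74 bp to the highest bin. Another led from 380 ± 55.6 HpM at 200 to 224 bp down to 164 ± 24.5 HpM at 225 to 249 bp. Large steps were thus not particular to the ends of the ORF. Gene boundaries came from an R64 table, and the maps from the build Cer3H4L2, which the authors made from Cer3. No genome sequence was used to check the boundaries on the maps. Moving them by 20 bp changed the share of each gap, as given in the closing part.

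**Figure D2:**
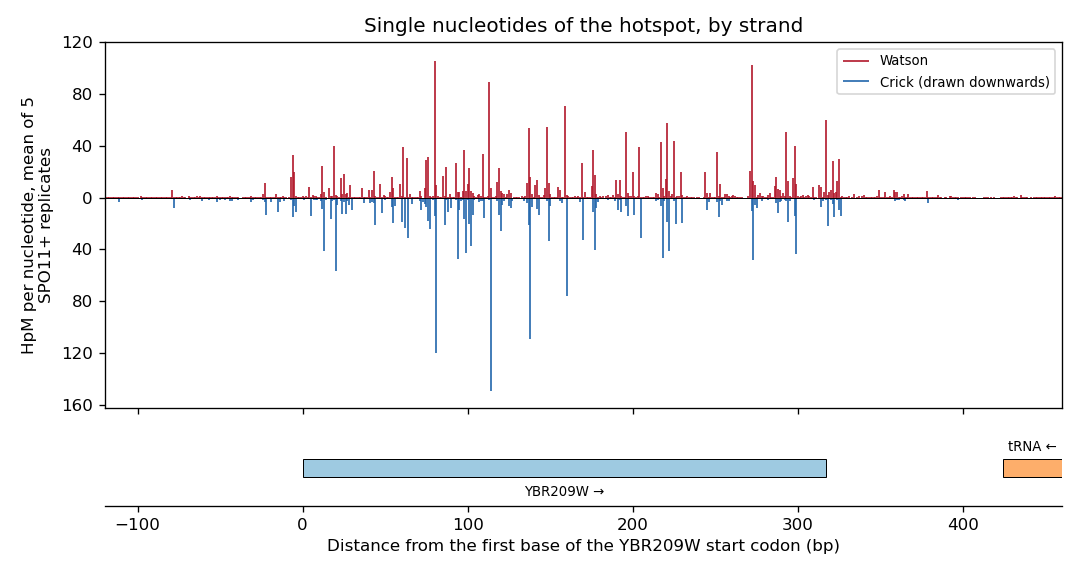
Mean HpM of the 5 SPO11+ replicates at each nucleotide, with Watson upwards and Crick downwards, against distance from the start codon of YBR209W. Sites of more than 40 HpM on either strand lie within the ORF, with Crick sites highest near 80 to 140 bp and Watson sites also high at 272 bp.

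At a finer scale the hotspot had several maxima. With a Hann window that reached 20 bp, the mean SPO11+ map had 8 sub-peaks of at least 10% of the highest, at 19, 84, 109, 144, 220, 251, 295 and 319 bp. Of these, 7 lay within YBR209W and the last lay just past its end. Each was then looked for in the same replicates that made up the mean map. A local maximum of any height counted, so that this is not an independent check. In all 5 replicates taken alone, 7 of the 8 were found within 10 bp, and the shift was at most 2 bp. The exception was the sub-peak at 251 bp, which was found in 3 replicates and was barely separated from its neighbour, since the lowest point between them reached 99.9% of its height. Neighbouring sub-peaks were 24 to 76 bp apart, with a median of 35 bp.

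The sub-peaks at 84 and 109 bp were the highest, with 23.8 ± 4.13 and 23.8 ± 3.77 HpM per bp in SPO11+, against 0.126 and 0.102 HpM per bp in spo11-Y135F. Those at 19, 144 and 220 bp had 14.1 ± 2.41, 17.9 ± 1.79 and 16.9 ± 2.15 HpM per bp. Those at 295 and 319 bp had 12.9 ± 1.54 and 11.96 ± 1.54 HpM per bp. The sub-peak heights thus fell into a high pair near the peak and lower ones on either side. The deepest troughs were at 40 bp, with 48.6% of the height of the lower sub-peak beside it, and at 186 bp, with 55.0%. Other troughs were shallow, at 79.8% or more.

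Replicate 4 had a different profile. Its sub-peaks at 19, 84 and 109 bp had 10.2, 18.1 and 17.3 HpM per bp, which were the lowest of the 5 replicates at each place, against ranges of 14.0 to 16.3, 22.4 to 29.4 and 24.0 to 26.5 in the others. At 220 bp it had 19.1 HpM per bp, close to the 19.2 of replicate 5 and above the 14.3 to 16.1 of replicates 1 to 3. At 144, 295 and 319 bp it had 16.4, 10.3 and 9.64 HpM per bp, again the lowest of the 5, against 17.1 to 20.97, 13.02 to 14.3 and 11.1 to 13.3 in the others. Replicate 4 was thus the lowest at 6 of the 8 sub-peaks, at both ends of the ORF, and not at 220 and 251 bp. These heights were not scaled to the level of the hotspot, which was also the lowest in replicate 4, with 4340.45 HpM. Being the lowest at a sub-peak therefore does not by itself show a different shape. In the map with a reach of 20 bp, the highest point of replicate 4 was at 220 bp, whereas it was at 109, 109, 108 and 82 bp in replicates 1, 2, 3 and 5.

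**Figure D3:**
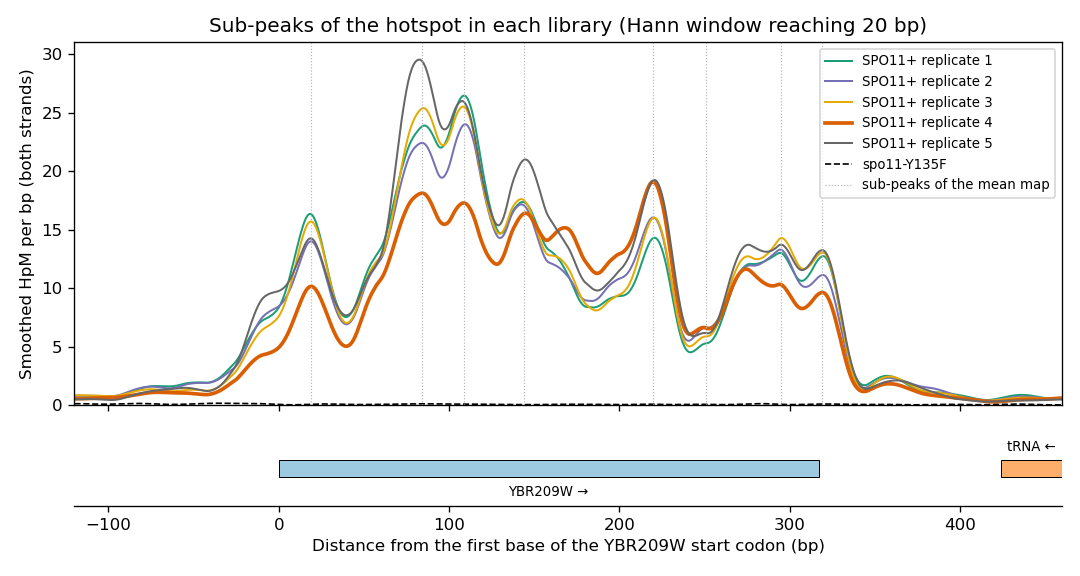
SPO11+ hits of both strands in HpM per bp, smoothed with a Hann window that reached 20 bp, in each of the 5 replicates, with spo11-Y135F as a broken line near 0 and the sub-peaks of the mean map as dotted lines. Replicate 4 (thick line) is the lowest of the 5 at 19, 84, 109, 144, 295 and 319 bp and the second highest at 220 and 251 bp.

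Across the 1752 nucleotide-and-strand sites of the hotspot, pairs of biological replicates had r of 0.899 to 0.983. The 4 pairs that include replicate 4 had r of 0.899 to 0.931, and the 6 pairs without it had r of 0.960 to 0.983. In bins of 25 bp, the chi-square of the difference per degree of freedom was 13.4 to 18.4 in pairs with replicate 4 and 2.44 to 9.83 without it, where pure counting noise gives about 1. The technical replicates had r of 0.982 and 1.31 per degree of freedom. The pairs with replicate 4 thus had the lowest r and the highest chi-square. The chi-square grows with depth, and these values are descriptions across sites that share a library, without a test.

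The 10 strongest single sites of the hotspot all lay within YBR209W, and none had a hit in spo11-Y135F. That library had only 160 hits over the 1752 sites of the hotspot, so that most sites of any strength had none. The strongest, on the Crick strand at 114 bp, had 175, 174, 171, 76.4 and 153 HpM in SPO11+ replicates 1 to 5, with a mean of 149.7 ± 42.0 HpM. Replicate 4 was far below the others there, and the site was rank 1 to 6 within the replicates. The Crick site at 81 bp had 127, 112, 137, 85.4 and 140.4 HpM, with a mean of 120.5 ± 22.5 HpM. The Crick site at 138 bp had 127, 114, 124, 76.7 and 106 HpM, with a mean of 109 ± 20.2 HpM. All 3 strongest sites were on the Crick strand, and at all 3 replicate 4 was the lowest.

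Strong Watson sites varied in another way. At 80 bp the Watson strand had 90.3, 96.5, 130.4, 94.96 and 115 HpM in SPO11+ replicates 1 to 5, with a mean of 106 ± 16.9 HpM. At 272 bp it had 89.4, 95.7, 105, 115 and 109 HpM, with a mean of 103 ± 10.1 HpM, and here replicate 4 was the highest. At 113 bp it had 96.3, 89.7, 86.4, 69.4 and 104 HpM, with a mean of 89.1 ± 12.9 HpM. The neighbouring means of sites 2 to 5 in this order differed by less than their SDs, so that their order is not settled. The mean of site 1, 149.7 ± 42.0 HpM, stood above the 120.5 ± 22.5 HpM of site 2 by less than its own SD. Its first place is therefore not settled either. The remaining 4 sites, on the Crick strand at 160 bp and on the Watson strand at 159, 317 and 221 bp, had means of 57.5 to 76.0 HpM.

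**Figure D4:**
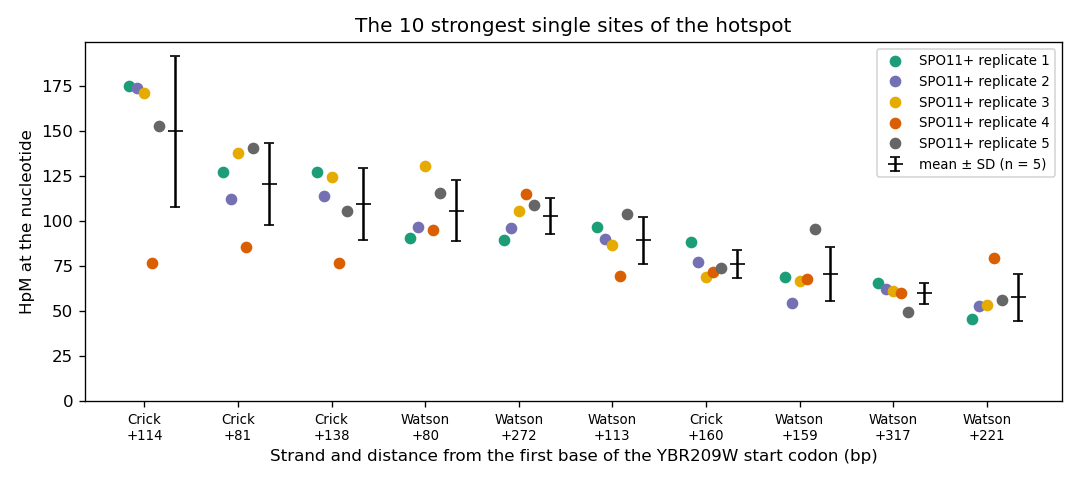
HpM at each of the 10 strongest sites of the hotspot, in order of their mean, with a point for each SPO11+ replicate and a bar for mean ± SD (n = 5), where the axis gives strand and distance from the start codon of YBR209W. Replicate 4 is the lowest of the 5 at the first 3 sites and the highest at the Watson sites at 272 and 221 bp.

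Hits fell at many sites, but a small part of these sites held 50% of the hits. The 10 strongest sites together held 19.0% ± 0.685 of the hits of the hotspot in SPO11+. In each replicate, 8 to 9 of its own 10 strongest sites were among these. The number of sites that held 50% of the hits was 50, 50, 48, 49 and 55 in replicates 1 to 5, of 1005 to 1373 sites with a hit. The deepest library, replicate 2, had the most sites with a hit. Thinning every replicate to the smallest total left the share of the 10 strongest sites at 19.0%.

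Strong Watson sites had Crick hits 1 bp to their right, which is the geometry of a Spo11 cut on both strands. Over the 876 positions of the hotspot, the correlation of Watson hits with Crick hits 1 bp to the right was 0.855 ± 0.0272 in SPO11+ and -0.0161 in spo11-Y135F. Of the offsets from -20 to 20 bp, this was the highest in 5 of 5 replicates. The next, at 5 bp, was 0.215 ± 0.0234. In the control every offset lay between -0.0664 and 0.0490, but its 160 hits leave most positions empty, so that these r have little weight. Values at single positions are not independent, since they share a library and its local level.

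The strands of a pair were often unequal, and the inequality had the same direction in all replicates at several pairs. In the strongest pair, Watson 113 with Crick 114, 37.3% of the hits were Watson, and Watson was the higher strand in 0 of 5 replicates. In the pair Watson 137 with Crick 138 the Watson share was 32.8%, again with Watson higher in 0 of 5. The opposite held in the pair Watson 272 with Crick 273, where 68.1% were Watson, and in the pair that starts at Watson 221, with 58.3%, Watson being the higher strand in 5 of 5 replicates in both. In the pair Watson 80 with Crick 81, the Watson share was 46.7% and Watson was higher in 1 of 5. The pair that starts at Watson 148 had 61.6% Watson hits, and Watson was higher in 5 of 5. Among the 10 strongest pairs, those with more Crick hits in all 5 replicates thus started at 19, 113 and 137 bp, and those with more Watson hits in all 5 started at 148, 221 and 272 bp.

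The balance of the strands was not used to choose the hotspot and was tested over the replicates. Over the whole hotspot 48.3%, 53.6%, 51.9%, 55.3% and 51.4% of the hits were Watson in SPO11+ replicates 1 to 5, and 46.2% in spo11-Y135F (74 of 160 hits, 95% Wilson interval 38.7% to 54.0%). The SPO11+ mean was 52.1% ± 2.63, and a two-sided exact sign-flip permutation test against 50% gave p = 0.1875 (adjusted p = 0.1875 over 3 comparisons). Right of the peak the Watson share was 55.9% ± 2.29 (exact permutation p = 0.0625, adjusted p = 0.1875), and left of it 46.1% ± 4.32 (exact permutation p = 0.1875, adjusted p = 0.1875). With 5 replicates the smallest p that this test allows is 0.0625, so that none of the 3 could pass 0.05.

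The sides of the peak differed in the same direction in every replicate. Right of the peak 53.4%, 58.6%, 53.6%, 57.2% and 56.5% of the hits were Watson in SPO11+ replicates 1 to 5, and left of it 40.8%, 45.7%, 49.2%, 51.4% and 43.2%. The sides did not overlap, since the highest replicate on the left was below the lowest on the right. The difference, right minus left, was 9.78 ± 4.33 percentage points (SD, n = 5) and was positive in 5 of 5 replicates (exact permutation p = 0.0625, the smallest possible), a comparison chosen after the values had been seen. In spo11-Y135F the shares were 42.5% right of the peak (95% Wilson interval 32.3% to 53.4%) and 50.6% left of it (39.8% to 61.4%), and these intervals overlap. The difference was 10.7 points without the 10 strongest sites and 13.5 points with the sides divided at the middle of the ORF.

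Many hotspots had the same direction. Among 1627 hotspots with at least 100 hits on each side of the peak in each replicate, 629 (38.7%) had a higher Watson share on the right in all 5 replicates, and 17.1% had a lower one in all 5. The hotspot inside YBR209W, with 5 of 5, thus belongs to a common class. Its difference lay at a percentile of 81.0 among the 1627, whose median was 3.14 points. Among the 163 strongest of these, 62.6% had the direction in all replicates and the median was 6.60 points, and this hotspot lay at a percentile of 66.3.

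In bins of 50 bp, the Watson share in SPO11+ was 44.4% ± 3.45, 47.5% ± 3.18 and 45.05% ± 5.24 over the first 150 bp of the ORF. It was 54.1% ± 1.51, 56.1% ± 1.89 and 63.3% ± 3.47 over the next 150 bp, and 69.4% ± 6.36 in the bin from 300 to 349 bp. From 150 bp to 349 bp the share was above 50% in 5 of 5 replicates in each bin. In the bin from 350 to 399 bp it was 62.0% ± 8.39 and above 50% in 4 of 5, with as few as 218 hits. The share therefore increased along the ORF from about 150 bp on, and replicate 2 was the highest in the last bins.

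**Figure D5:**
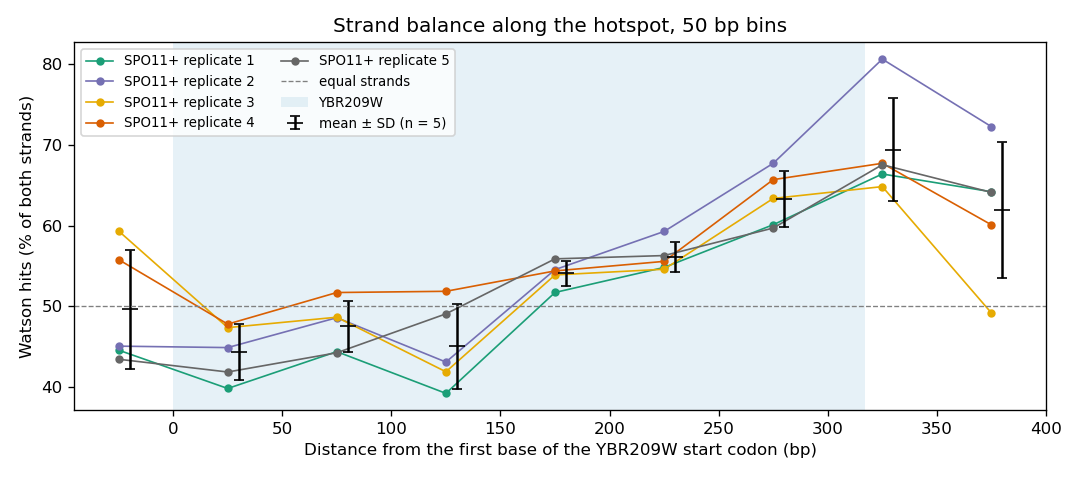
Share of hits on the Watson strand (%) in bins of 50 bp against distance from the start codon of YBR209W, with a line for each SPO11+ replicate, bars for mean ± SD (n = 5), a broken line at 50% and YBR209W shaded. The 5 replicates are above 50% in every bin from 150 to 349 bp and are on average below it to the left.

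Among the hotspots of the 15 chromosomes analysed, which leave out chromosome III, the one inside YBR209W ranked 4 by mean HpM. It ranked 3, 5, 4, 6 and 5 in SPO11+ replicates 1 to 5. By the height of the smoothed map it ranked 8, and 4 to 12 in the replicates. The hotspot at rank 5, between INO2, which encodes a regulator of phospholipid genes, and YDR124W, had 4932 ± 707 HpM, so that the order of the pair was within their SDs. Without replicate 1, 3 or 4 the hotspot inside YBR209W was at rank 5.

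It was 1 of 191 hotspots (7.12% of 2682) whose peak lay inside an ORF, and among these it was rank 1 in every replicate. The median of the 191 was 137 HpM, and 19 of them had at least 1000 HpM. The next were the hotspots inside AXL1, which encodes a protease that matures the mating pheromone a-factor, with 3437 ± 314 HpM, inside YJL027C, with 2305 ± 181 HpM, inside CWC21, a splicing factor gene, with 2092 ± 221 HpM, and inside YGL149W, with 2034 ± 338 HpM. Each was below the hotspot inside YBR209W in 5 of 5 replicates. At YBR209W the peak stood 106 bp from the nearer end of a gene of 318 bp, whereas at AXL1 it stood 40 bp from the nearer end of a gene of 3627 bp. The share of hits inside the host ORF was 85.4% at YBR209W and 55.6%, 56.1%, 64.6% and 52.5% at the other 4. Of the 19 strong hotspots it was the 5th highest, with a median of 63.5%, and among all 191, many of them narrow, it was at place 120.

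Among all 2682 hotspots this one was wide, its 876 bp lying at a percentile of 98.3, and it was at rank 10 in width among the 191 inside ORFs. In the span of its hits it was nevertheless narrower than 3 of the other 4 hotspots with the highest mean. The span of the middle 90% of its hits was 329 to 347 bp over the SPO11+ replicates. It was 394 to 425 bp between AAC1, a mitochondrial ADP/ATP carrier gene, and FET3, which encodes an iron uptake oxidase, and 641 to 694 bp between SND1 and CCT6, which encodes a chaperonin subunit. It was 500 to 716 bp between SPR3, a septin gene of sporulation, and ERG25, a gene of sterol synthesis, and 170 to 231 bp between INO2 and YDR124W. None of these ranges overlapped that of the hotspot inside YBR209W, and the differences were not tested. The 10 strongest sites held 18.3% to 20.0% of its hits, within or near the range of the first 3 of these hotspots (15.6% to 25.7%, 15.7% to 20.3% and 20.1% to 23.6%) and below the 40.1% to 44.4% between INO2 and YDR124W.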

How the data were processed

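Spo11 hits were analysed in 6 SPO11+ libraries of 5 biological replicates and 1 spo11-Y135F library, grouped by genotype from their labels. Per the paper's methods, the authors mapped read pairs to the build Cer3H4L2 using Bowtie2 and kept reads of any mapping quality. They took the 5′ end of the first read as the linked end (terminalMapper) and masked telomeres, rDNA, retrotransposons and long terminal repeats. The SK1 reads were thus placed on a reference of another strain. What the authors deposited for each library are raw counts, by nucleotide and strand. Their average map of SPO11+ in HpM, that is RPM of hits, was used as 1 alternative. No column was left unused.

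Counts were divided by the total of each library and multiplied by 1000000. Hotspots, sub-peaks and sites were found as described above, with chromosome III left out of hotspot calls. Positions in runs of more than 200 bp without a hit in any library were taken as not countable. ORFs and gene names were those of an R64 table, and its coordinates are not given. On chromosome II the share of hits outside ORFs was 68.6% as annotated and highest, 69.3%, with the table moved by 40 bp. No genome sequence was used, so sequences at the sites are not analysed here. Single values were tested by exact sign-flip permutation over replicates, with Benjamini-Hochberg adjustment over 3 comparisons. The procedures were checked on simulated data. The genes described were YBR209W, ERV15, their nearest neighbours and those at the other hotspots of the highest 5, and the sites were the 10 with the highest mean. The hosts of the next ORF hotspots and the ORFs next in density were named after their values were seen. The members and lists were chosen with earlier results of these data known. Python 3.11.15, numpy 2.4.6, scipy 1.17.1, pandas 2.3.3 and matplotlib 3.10.9 were used. Alternatives covered scaling, threshold, smoothing, gene boundaries, depth, sites, strands and leaving out single replicates.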

Additional observations from a re-analysis of the deposited data

Results flagged for a closer look

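Of 47 measures compared over the 5 SPO11+ replicates, 6 had 1 replicate far from the other 4, by Dixon's ratio with a critical value of 0.71, where chance alone gives about 2.35. Many of the 47 measures share hits with one another, so that the 6 are not separate events and no excess over chance is claimed. Replicate 4 was the one apart in 3 of them, which overlap, since all concern hits near the peak. Its peak lay 128 bp from the start codon of YBR209W, against 102 to 105 bp in the others. At the sub-peak at 109 bp it had 17.3 HpM per bp, against 24.0 to 26.5, and at the Crick site at 114 bp it had 76.4 HpM, against 153 to 175 HpM. Replicate 5 was apart at the sub-peak at 144 bp, with 20.97 HpM per bp against 16.4 to 17.5, and in the number of sites that held 50% of its hits, 55 against 48 to 50. Replicate 2 was apart in its total, with 8564017 hits against 3177210 to 4502308.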

How the results depend on the processing

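Of 102 alternatives over 13 results, 89 were counted as unchanged, 13 moved the value further, and 0 turned a direction. Unchanged meant within the SD of the replicates or, for the number of sub-peaks, within 1.5 times. For strand shares it meant only the same side of 50% or the same sign. Many alternatives left out 1 replicate, which can hardly move a mean by its SD, so that the 89 says little about those. The hotspot level without replicate 5 was counted again under another name. When each ORF was cut back by 50 bp on both sides, YBR209W held 61.8% of the hits of the window, the gap to DUR12 17.03% and the stretch from YBR209W to the end of the window 20.6%. With ORF boundaries moved by -20 bp these were 82.5%, 4.57% and 12.3%, and with boundaries moved by 20 bp the gap to DUR12 held 11.3% and the right stretch 4.29%. The peak lay at 84 bp with a Hann window that reached 20 bp, and the median hit of the mean map was at 138 bp. Sub-peaks numbered 13 with a reach of 10 bp and 4 with a reach of 40 bp. By the highest point of the smoothed map the rank was 8. Without each replicate in turn, the hotspot had 4818 to 5087 HpM, the peak lay at 103 to 107 bp, sub-peaks numbered 7 to 8 and the rank was 4 to 5. Without replicate 5 the hotspot had 4818 HpM.

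No paired analysis was possible because spo11-Y135F is a single library and shares only 1 replicate number with SPO11+. At this depth, 1 hit equals up to 0.315 HpM, which limits ERV15 and the weak maximum beside it more than the hotspot. Only 160 control hits fell in the hotspot, so its shape in spo11-Y135F cannot be described. SK1 differs from the reference, and positions lost to such differences were not tested.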
